A study of Homo sapiens with 17 samples.

Results

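Heat shock proteins and their J-domain partners were followed on 17 Affymetrix expression arrays of human breast cell lines. The members were all probe sets paired with a single gene whose symbol starts with HSPA, HSPB, HSPH, HSPD, HSPE, HSP90 or DNAJ and runs on, with or without further letters, to a number. The rule took 70 of the 17709 probe sets that have 1 gene symbol, 1 probe set for each of 70 genes. RefSeq lists 75 protein-coding genes with such symbols, and DNAJC5, HSP90B1, HSPA1B, HSPA8 and HSPB2 were not analysed here. The rule also took in HSPBP1 and HSPBAP1, which are proteins that bind heat shock proteins, and the read-through transcripts HSPE1-MOB4 and DNAJC25-GNG10, whose signal can be shared with their parent genes. HSPA1A has a near-identical neighbour, HSPA1B, and HSPA6 has close relatives, so the signal of both probe sets may include other genes.

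The treated cells were MDA-MB-231, a triple-negative breast cancer line with mesenchymal features. Maraviroc, a small-molecule drug, was given at its IC20 or IC50 and compared with ethanol, its solvent. DZH_2, a compound known here by its code name, was given at its IC20 or IC50 and compared with DMSO, its solvent. Each of these 6 groups had 2 arrays, and untreated MDA-MB-231 cells had 1. A further 4 arrays are titled MCF10, a non-tumorigenic mammary epithelial line: 1 of untreated cells, 1 of the DMSO solvent and 1 for each DZH_2 dose. Cells grew for 24 h before a treatment of 48 h. The names stand for doses with 20% and 50% inhibition, and molar amounts are not stated in the labels. Nothing in the labels ties the replicates to separate cultures, and a p-value here therefore reflects array-to-array spread that may be technical only.

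Heat shock proteins are molecular chaperones that hold, fold or release other proteins. HSP70 proteins bind and release unfolded stretches in a cycle driven by ATP. J-domain proteins of the DNAJ families bring clients to HSP70 and start ATP hydrolysis, while HSP110 proteins exchange the nucleotide and let the client go. HSP90 finishes the folding of kinases and receptors, small HSPs hold unfolded proteins without ATP, and the endoplasmic reticulum and the mitochondria have HSP70 systems of their own. When unfolded protein builds up in the cytosol, the transcription factor HSF1 binds heat shock elements in front of HSPA1A, DNAJB1, HSPB1 and related genes. In the endoplasmic reticulum the unfolded protein response does the same for HSPA5 and DNAJB9 through other elements. Breast cancer cells are known to depend on several of these chaperones.

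The 250 bases before 1 annotated transcript start of 64 of the 70 genes were read from RefSeq (GRCh38.p14). In 56 genes that start is the outer end of the gene's span. In DNAJB1, DNAJB5, DNAJC14, DNAJC19, DNAJC28, HSPA2, HSPA12A and HSPB7 it is an inner start, in DNAJB1 31120 bases inside the span. The windows of 5 genes are shown: HSPA1A, DNAJB1 and HSPB1 as the HSF1 targets named above, HSPA5 as the target of the unfolded protein response, and HSPA6 for its run of 3 units. DNAJB6 holds such a run too and is not shown. The choice was made with earlier results of these data known. Capitals mark a pair of inverted heat shock units, which is GAA and TTC in either order with any 2 bases between them. In HSPA5 they mark the endoplasmic reticulum stress element, CCAAT followed after any 9 bases by CCACG. All motifs were searched on both strands, and 3 alternating units in a row, each 2 bases from the next, contain overlapping pairs. The windows are chr6:31815293-31815542 on the plus strand for HSPA1A, chr1:161524290-161524539 on the plus strand for HSPA6, chr19:14529272-14529521 on the minus strand for DNAJB1, chr7:76302423-76302672 on the plus strand for HSPB1 and chr9:125241344-125241593 on the minus strand for HSPA5.
HSPA1A: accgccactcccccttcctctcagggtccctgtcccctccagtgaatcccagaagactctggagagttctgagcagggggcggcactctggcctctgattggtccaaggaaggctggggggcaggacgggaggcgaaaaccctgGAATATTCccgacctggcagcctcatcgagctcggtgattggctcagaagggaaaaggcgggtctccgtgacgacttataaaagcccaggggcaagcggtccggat
HSPA6: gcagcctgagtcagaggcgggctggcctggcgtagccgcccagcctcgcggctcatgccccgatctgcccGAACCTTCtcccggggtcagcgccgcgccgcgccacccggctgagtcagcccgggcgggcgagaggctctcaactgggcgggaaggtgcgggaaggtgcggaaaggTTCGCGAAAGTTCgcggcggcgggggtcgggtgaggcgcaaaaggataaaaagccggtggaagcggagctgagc
DNAJB1: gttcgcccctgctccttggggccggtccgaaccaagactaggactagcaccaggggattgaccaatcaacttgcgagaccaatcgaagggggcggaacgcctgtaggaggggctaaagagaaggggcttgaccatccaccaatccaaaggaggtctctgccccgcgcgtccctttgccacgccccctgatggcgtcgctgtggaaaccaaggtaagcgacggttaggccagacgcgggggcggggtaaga
HSPB1: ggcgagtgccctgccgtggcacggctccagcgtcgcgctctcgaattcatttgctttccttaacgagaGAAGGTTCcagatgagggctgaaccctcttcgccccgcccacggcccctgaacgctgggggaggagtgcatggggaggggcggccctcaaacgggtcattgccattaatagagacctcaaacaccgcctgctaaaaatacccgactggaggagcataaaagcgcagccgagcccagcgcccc
HSPA5: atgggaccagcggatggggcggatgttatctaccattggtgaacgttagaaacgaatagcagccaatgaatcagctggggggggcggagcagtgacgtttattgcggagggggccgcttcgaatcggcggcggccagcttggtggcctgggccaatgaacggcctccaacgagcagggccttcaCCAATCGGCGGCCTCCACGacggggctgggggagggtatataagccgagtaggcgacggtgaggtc

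A pair of units lay in 11 of the 64 windows (17.2%), against 9.65% of 14250 windows of genes on the array and 11.7% of all 27305 windows. The holders were HSPA1A, HSPA1L, HSPA6, HSPB1, HSPB3, HSPB6, HSPB8, DNAJA1, DNAJB6, DNAJB7 and DNAJC15. A run of 3 units lay in HSPA6 and DNAJB6, against 0.351% of windows of genes on the array. The endoplasmic reticulum element lay in HSPA5 alone among the 64, against 0.126% of windows of genes on the array. HSPA1A and HSPA1L start close together on opposite strands, and the pair GAATATTC found in both windows is the same stretch, chr6:31815437-31815444, 106 to 99 bases before the start of HSPA1A and 161 to 154 before that of HSPA1L. The window of DNAJB1, which lies before an inner start, held none of these patterns. This says nothing of the bases before any other start of the gene, whether at its outer end or further inside its span.

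Replicate arrays correlated across genes at 0.960 for Maraviroc IC50 and at 0.984 to 0.991 in the other 5 replicated groups. The interquartile range of log2 signal was 4.05 and 4.07 on the Maraviroc IC50 arrays, 4.21 to 4.65 on the other 11 MDA-MB-231 arrays and 3.34 to 3.62 on the arrays titled MCF10. For the latter the title and the cell line entry disagree (the entry gives MDA-MB-231), and the title was used. Above the level of the negative controls (6.11, under which 75% of the 612 negative probe sets lay), their controls had 4 of 5 basal epithelial, 2 of 5 general epithelial (KRT8 and KRT18, but not CDH1, EPCAM or CLDN1), 3 of 4 mesenchymal, 4 of 4 fibroblast, 3 of 3 immune and 0 of 2 endothelial markers. The MDA-MB-231 controls had 2 of 5 basal, 3 of 5 general epithelial, 4 of 4 mesenchymal, 1 of 4 fibroblast, 1 of 3 immune and 0 of 2 endothelial markers above it. Levels differed widely for FBLN1 (13.65 titled MCF10, 4.86 MDA-MB-231), S100A2 (14.85 and 6.68), ZEB1 (7.23 and 12.38) and AKAP12 (5.33 and 11.36). They were close for KRT8 (14.18 and 13.61) and KRT18 (12.80 and 13.21). The arrays titled MCF10 were thus unlike the MDA-MB-231 controls, but these markers do not settle which line it is. Of the 70 members, 48 were above it on all 13 MDA-MB-231 arrays and 10 on none, among them HSPA1L, HSPB8, HSPB9, DNAJB13 and DNAJC12.

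Maraviroc at its IC50 raised some chaperones strongly and lowered others. HSPA1A rose most, and its J-domain partners DNAJB2 and DNAJB1, HSP90AA1 and the endoplasmic reticulum partner DNAJB9 rose with it. HSPA4L, DNAJC9, DNAJC13, DNAJC8 and HSPB1 fell. In all, 17 members rose and 9 fell at an adjusted p under 0.05 (limma, Benjamini-Hochberg over 17687 genes), which is 37.1% of the members against 27% of all genes tested. The share that rose was 24.3% of members against 12% of all genes, and the share that fell was 12.9% against 15%. The median log2 difference was 0.31 over the members and 0.11 over all genes. Both treated arrays lay beyond both ethanol arrays for 47 members (67.1%), against 57.8% of all genes. RNA was taken from whole cultures, so a change in every cell and a change in some of the cells cannot be told apart.

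**Figure D1:**
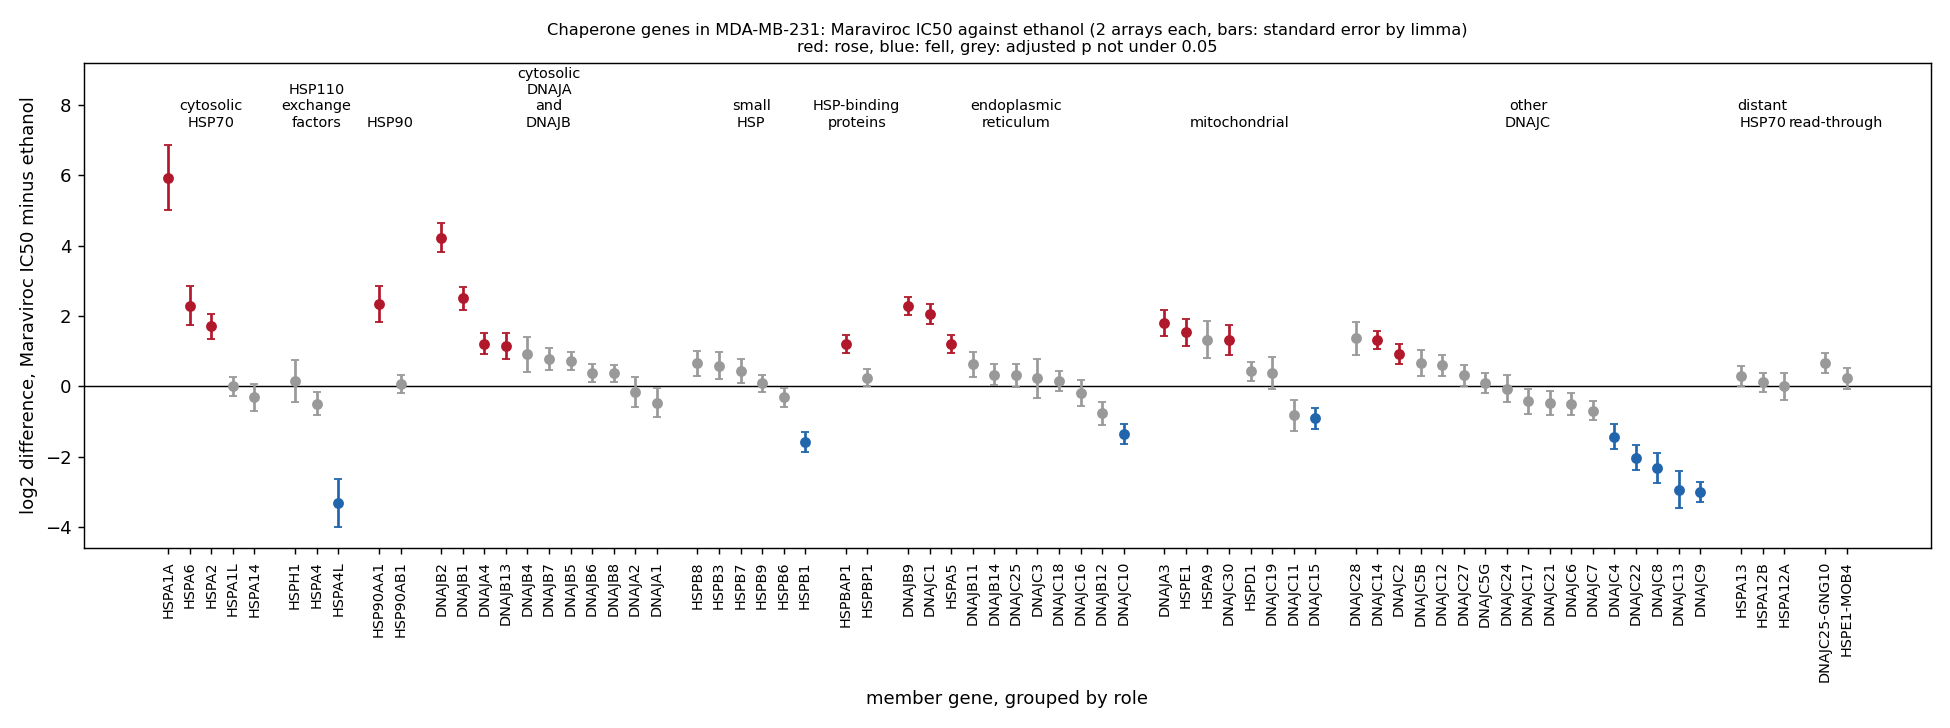
Log2 difference between Maraviroc IC50 and ethanol in MDA-MB-231 for each of the 70 members, grouped by role along the horizontal axis. Points are differences between means of 2 arrays and bars are standard errors from limma. Red points rose and blue points fell at an adjusted p under 0.05. HSPA1A stands at 5.94 and HSPA4L at -3.32, and the cytosolic DNAJA and DNAJB genes hold no blue point.

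Among the 5 cytosolic HSP70 genes, 3 rose and none fell. HSPA1A, the main stress-inducible HSP70, had log2 signals of 16.10 and 16.15 under Maraviroc IC50, against 9.78 and 10.59 under ethanol. Both treated arrays lay far above every other MDA-MB-231 array, of which the highest, the replicate 1 array of DZH_2 IC20, reached 14.44. The difference was 5.94 ± 0.93 (SE, adjusted p = 0.000525), a 61.4-fold rise. HSPA6, an HSP70 that is nearly silent in unstressed cells, had 9.16 and 7.50 under treatment and 6.22 and 5.87 under ethanol, where it straddled the level of the negative controls. The groups did not overlap, yet the treated arrays stood 1.66 apart, and the rise of 2.29 ± 0.55 (adjusted p = 0.00832) became 1.46 (adjusted p = 0.0596) without the replicate 1 array of Maraviroc IC50 and 2.11 (adjusted p = 0.062) without the replicate 2 array of ethanol. HSPA2, an HSP70 best known from the testis, had 8.59 and 8.64 against 7.18 and 6.64, a rise of 1.71 ± 0.36 (adjusted p = 0.00339). HSPA1L, which shares the printed motif with HSPA1A, stayed near the negative controls at 5.35 and 4.85 against 4.95 and 5.25. HSPA14, a ribosome-associated HSP70, differed by -0.30 (adjusted p = 0.618).

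Of the 11 cytosolic DNAJA and DNAJB genes, 4 rose and none fell, with a median difference of 0.78. DNAJB2, a J-domain protein that hands ubiquitinated clients to the proteasome, had 10.94 and 11.98 under Maraviroc IC50 and 6.61 and 7.85 under ethanol. The treated arrays exceeded every other MDA-MB-231 array by over 2 log2 units, and the rise was 4.23 ± 0.41 (adjusted p = 1.6e-05), or 18.8-fold. DNAJB1, the HSP40 that works with inducible HSP70, had 14.90 and 14.48 against 12.07 and 12.30. Its rise was 2.50 ± 0.32 (adjusted p = 0.00013), and the groups did not overlap. DNAJA4 rose by 1.21 ± 0.29, a call that was lost without the replicate 2 array of ethanol (1.05, adjusted p = 0.0706). DNAJB13 rose by 1.15 ± 0.36 but stayed below the level of the negative controls on every array, and its call was lost without the replicate 2 array of Maraviroc IC50 (0.58) or without either ethanol array (0.97 and 1.34). DNAJA1, a general HSP70 partner, differed by -0.46 ± 0.40, with 10.69 and 11.44 against 11.13 and 11.92.

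The other parts of the cytosolic folding cycle did not move as one. HSP90AA1, the stress-inducible HSP90, had 15.58 and 14.01 under treatment and 12.34 and 12.59 under ethanol. Both treated arrays were above both ethanol arrays although they stood 1.58 apart, and the rise was 2.33 ± 0.51 (adjusted p = 0.00459), or 1.55 without the replicate 1 array of Maraviroc IC50. HSP90AB1, the constitutive HSP90, had 15.67 and 15.49 against 15.63 and 15.41, a difference of 0.06 ± 0.26. Of the 3 HSP110 exchange factors, HSPA4L fell, with 5.25 and 7.89 against 10.03 and 9.74, by 3.32 ± 0.68 (adjusted p = 0.00312). Its treated arrays were both below both ethanol arrays, but the replicate 1 array was below the level of the negative controls, and its difference was -1.997 without the replicate 1 array of Maraviroc IC50. HSPH1, the inducible HSP110, had 10.95 and 12.58 against 11.63 and 11.60, so its treated arrays lay on either side of ethanol. HSPA4 differed by -0.49 ± 0.33 without passing.

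Of the 6 small HSPs, 1 fell and none rose. HSPB1, or HSP27, had 13.36 and 13.31 under Maraviroc IC50 and 14.96 and 14.87 under ethanol. The groups were tight and apart, and the fall was 1.58 ± 0.28 on the log2 scale (adjusted p = 0.0012). HSPB8, which holds clients for autophagy, differed by 0.66 ± 0.36 below the level of the negative controls. Of the HSP-binding proteins, HSPBAP1 rose by 1.20 ± 0.25, and HSPBP1, a nucleotide exchange factor of HSP70, differed by 0.25 ± 0.25.

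Among the 11 members of the endoplasmic reticulum, 3 rose and 1 fell. DNAJB9, a J-domain partner of BiP that the unfolded protein response induces, had 10.66 and 10.54 under Maraviroc IC50 against 8.31 and 8.33 under ethanol. The replicates were close and the rise was 2.28 ± 0.25 (adjusted p = 4.3e-05). DNAJC1, a membrane J-domain protein of the same compartment, had 11.98 and 12.52 against 10.08 and 10.32, a rise of 2.05 ± 0.28. HSPA5, the HSP70 called BiP, had 14.97 and 14.72 against 13.42 and 13.84. Its groups did not overlap and the rise was 1.22 ± 0.26 (adjusted p = 0.00358), which missed the threshold (adjusted p = 0.0549) when only the 4 arrays compared were fitted. DNAJC10, a disulfide reductase with a J domain, had 9.02 and 8.91 against 10.45 and 10.20 and fell by 1.36 ± 0.28. DNAJC3, an inhibitor of the stress kinase PERK, had treated arrays 2.32 apart, 8.32 and 10.64, on either side of ethanol (8.98 and 9.52).

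Of the 8 mitochondrial members, 3 rose and 1 fell. DNAJA3, the J-domain partner of mitochondrial HSP70, had 9.88 and 10.21 against 8.42 and 8.06, a rise of 1.80 ± 0.36 (adjusted p = 0.00259). HSPE1, the HSP10 lid of the mitochondrial chaperonin, had 14.03 and 13.71 against 12.23 and 12.45, and rose by 1.54 ± 0.38. That call was lost without the replicate 1 array of ethanol (1.43, adjusted p = 0.0685). HSPD1, the HSP60 that HSPE1 closes, had 13.70 and 13.25 against 13.13 and 12.96 and did not pass, at 0.43 ± 0.27. HSPA9, the mitochondrial HSP70, had 15.28 and 13.39 against 13.39 and 12.61, and its difference of 1.33 ± 0.51 did not pass either. DNAJC30 rose by 1.32 ± 0.44 and DNAJC15, a J-domain protein of the inner membrane, fell by 0.91 ± 0.30. Both calls were lost without the replicate 1 array of Maraviroc IC50 (0.68 and -0.45) and without either ethanol array.

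The 17 other DNAJC members are those not placed in the endoplasmic reticulum or the mitochondria, and here 2 rose and 5 fell, with a median of -0.42. DNAJC9, a histone chaperone, had 5.97 and 6.73 under treatment and 9.34 and 9.37 under ethanol. It fell by 3.01 ± 0.29 on the log2 scale (adjusted p = 1.5e-05), an 8.03-fold drop, and the replicate 1 array ended near the negative controls. DNAJC13, an endosomal sorting protein, had 7.21 and 6.50 against 10.20 and 9.37 and fell by 2.93 ± 0.52. DNAJC8, which is found with the splicing machinery, had 9.21 and 7.74 against 11.14 and 10.45 and fell by 2.32 ± 0.43. DNAJC22 fell by 2.03 ± 0.35 to 4.38 and 4.44, below the level of the negative controls. DNAJC4 fell by 1.43 ± 0.36, a call lost without the replicate 2 array of ethanol (-0.93, adjusted p = 0.118). DNAJC14 rose by 1.32 ± 0.27, and DNAJC2, a ribosome-associated J-domain protein, by 0.93 ± 0.29. The DNAJC2 call was lost without the replicate 1 array of Maraviroc IC50 and without either ethanol array. The 3 distant HSP70 members (HSPA12A, HSPA12B and HSPA13) and both read-through transcripts did not pass.

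In all, 16 of the 26 calls held under each of the 13 alternatives tried. They were those of HSPA1A, HSPA2, HSPA4L, HSP90AA1, HSPB1, DNAJA3, DNAJB1, DNAJB2, DNAJB9, DNAJC1, DNAJC8, DNAJC9, DNAJC10, DNAJC13, DNAJC14 and DNAJC22. The narrower signal range and wider replicate spread of the Maraviroc IC50 arrays move with this comparison. After quantile normalization, which gives all arrays the same range, 19 members rose and 8 fell. Of the 11 members whose windows held a pair of heat shock units, 2 rose (HSPA1A and HSPA6) and 2 fell (HSPB1 and DNAJC15), and of the 53 without one 14 rose and 6 fell. The 53 include DNAJB1 and HSP90AA1, which rose. Only 1 start per gene was read, an inner start in DNAJB1 and the outer end of a span of 59008 bases in HSP90AA1. Units before other starts were not searched, so a link between such units and a rise was not tested.

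Genes of neighbouring folding systems, from lists outside the symbol rule, were mixed as well. Over all genes, 12% rose and 15% fell in this comparison. The first list held HSF1, other heat shock factors, co-chaperones and stress genes. Of its 23 measured genes among 28, 7 rose and 2 fell, with a median of 0.30. P4HA2, a collagen prolyl hydroxylase, rose by 3.11 ± 0.49, CHORDC1, an HSP90 co-chaperone, by 2.04 ± 0.33, and ATF3, a stress transcription factor, by 1.79 ± 0.33. STIP1, which joins HSP70 to HSP90, fell by 2.45 ± 0.27. HSF1 itself differed by 0.08 ± 0.37. Of the 12 measured subunits among 14 of the TRiC chaperonin and prefoldin, 5 fell (PFDN1, VBP1, CCT3, CCT4 and CCT5) and 1 rose (PFDN5), with a median of -0.86. Of 15 folding partners of the endoplasmic reticulum, 2 rose and 3 fell. DDIT3, the stress transcription factor CHOP, rose by 4.04 ± 0.61, SEC61B, a translocon subunit, by 1.32 ± 0.32, and ERO1A, an oxidase of disulfide formation, fell by 2.21 ± 0.47. SIL1, the exchange factor of BiP, fell by 1.37 ± 0.36. Of 10 mitochondrial partners measured among 11, 2 rose and 2 fell, and YME1L1, an inner membrane protease, fell by 2.08 ± 0.29. Of 3 measured J-domain genes among 5 outside the symbol rule, HSCB rose and SEC63 fell. HSCB is also counted among the mitochondrial partners and SEC63 among those of the endoplasmic reticulum.

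**Figure D2:**
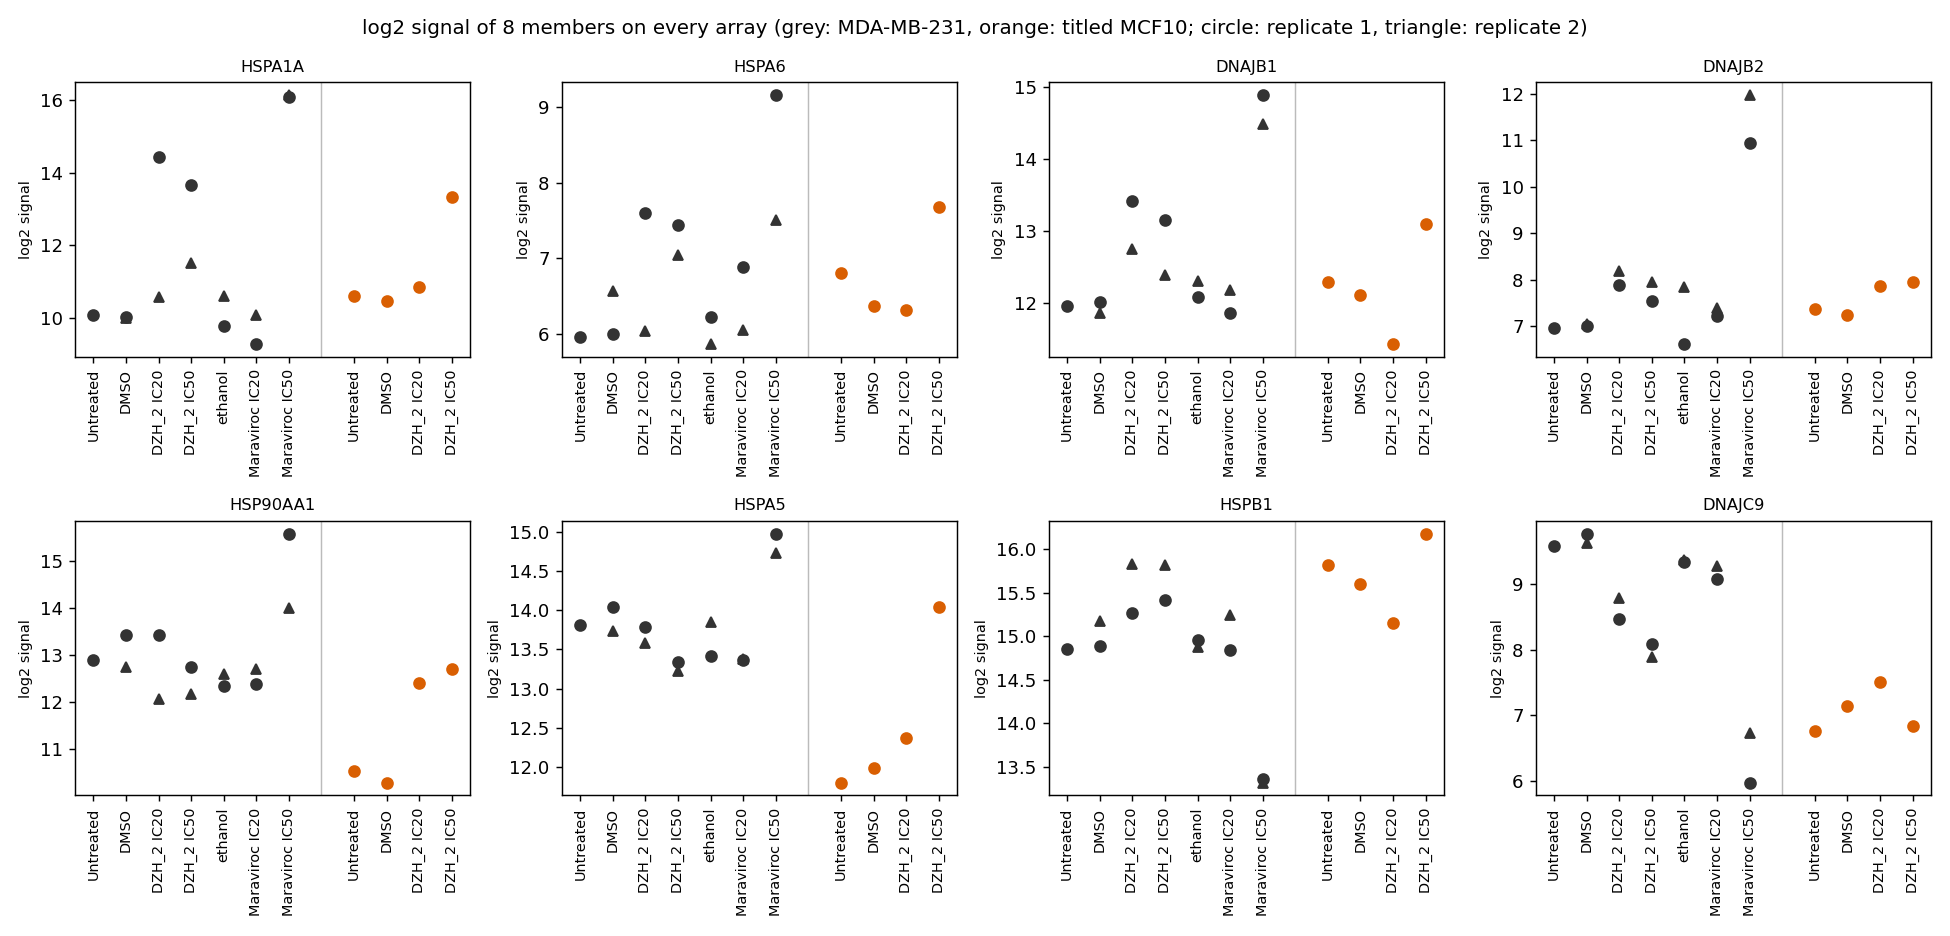
Log2 signal of 8 members on each of the 17 arrays, 1 panel per gene, with the group on the horizontal axis. Circles are replicate 1, triangles replicate 2, grey is MDA-MB-231 and orange the arrays titled MCF10. HSPA1A lies near 10 in the control arrays, between 10.58 and 14.44 under DZH_2 in MDA-MB-231 and at 16.10 and 16.15 under Maraviroc IC50.

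At its IC20 Maraviroc left no member past the threshold. No gene of the whole array passed either (0% of 17687), and no member had an unadjusted p under 0.05, against 1.75% of all genes. HSPA1A had 9.28 and 10.07 against 9.78 and 10.59 under ethanol, so the groups overlapped. DNAJB1 had 11.86 and 12.18 against 12.07 and 12.30, and HSP90AA1 12.37 and 12.70 against 12.34 and 12.59. The smallest p-values belonged to HSPBAP1 (0.52 ± 0.25), DNAJB7 (0.56 ± 0.31), DNAJC27 (0.51 ± 0.30) and HSPA2 (-0.58 ± 0.36), with adjusted p = 1.00 for all 4 by limma.

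Set directly against its IC20, Maraviroc IC50 raised 16 members and lowered 11 (38.6%, against 26.7% of all genes). This comparison shares its treated arrays with the one against ethanol. HSPA1A rose by 6.45 ± 0.93, DNAJB2 by 4.15 ± 0.41, DNAJB1 by 2.67 ± 0.32, HSPA2 by 2.29 ± 0.36 and HSP90AA1 by 2.26 ± 0.51. HSPA4L fell (-3.29 ± 0.68), as did DNAJC13 (-3.01 ± 0.52), DNAJC9 (-2.83 ± 0.29) and DNAJC8 (-2.72 ± 0.43). HSPA5 rose by 1.48 ± 0.26 (adjusted p = 0.00103) and HSPB1 fell by 1.70 ± 0.28 (adjusted p = 0.000732).

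DZH_2 gave a smaller and less even picture in MDA-MB-231. HSPA1A and DNAJB1 were higher under DZH_2 than under DMSO on all 4 treated arrays, but their replicates stood apart and neither passed. DNAJC9 was the 1 member that passed, lower at the IC50 (1.43% of members against 1.57% of all genes). At the IC20 no member passed, against 0.871% of all genes, while 15 (21.4%) had an unadjusted p under 0.05, against 12% of all genes (limma).

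HSPA1A had 14.44 and 10.58 at the DZH_2 IC20 and 13.66 and 11.52 at the IC50, against 10.014 and 10.003 under DMSO. All treated arrays were above both DMSO arrays, but those of the IC20 differed by 3.86 between them. The differences were 2.50 ± 0.93 (adjusted p = 0.285) and 2.58 ± 0.93 (adjusted p = 0.2). Without the replicate 2 array of the IC20 the difference was 4.43 (adjusted p = 0.0475), and with only the arrays of the IC50 and DMSO fitted it was 2.58 with a smaller error, 0.54 (adjusted p = 0.0293). DNAJB1 had 13.41 and 12.74 at the IC20 and 13.15 and 12.38 at the IC50, against 12.01 and 11.85, with differences of 1.15 ± 0.32 (adjusted p = 0.135) and 0.83 ± 0.32 (adjusted p = 0.236).

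DNAJC9 had 8.46 and 8.79 at the DZH_2 IC20, 8.09 and 7.88 at the IC50 and 9.77 and 9.63 under DMSO. The 3 groups did not overlap. At the IC50 it fell by 1.71 ± 0.29 on the log2 scale (adjusted p = 0.0164), and at the IC20 the difference was -1.07 ± 0.29 (adjusted p = 0.107). Leaving out any 1 of the 4 arrays ended the call, with differences of -1.61 to -1.82 and adjusted p from 0.0889 to 0.212. The next smallest p-values at the IC50 belonged to HSPD1 (-1.02 ± 0.27, adjusted p = 0.0796), HSPA13 (-0.98 ± 0.27) and DNAJC10 (-0.98 ± 0.28). At the IC20 they belonged to DNAJB5, a J-domain protein of the DNAJB1 type (1.19 ± 0.26, adjusted p = 0.0546), DNAJC4 (1.37 ± 0.36), DNAJC9 and DNAJC15 (-1.12 ± 0.30). HSPA5 differed by -0.21 ± 0.26 and -0.61 ± 0.26, HSPB1 by 0.51 ± 0.28 and 0.59 ± 0.28, and HSP90AA1 by -0.34 ± 0.51 and -0.63 ± 0.51 at the IC20 and the IC50. None of these passed.

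The replicates of the DZH_2 IC20 stood further apart for the members than over all genes. The SD between them was 0.580 over the members and 0.366 over all genes, and 11 members (15.7%) differed by at least 1 between the arrays, against 5.47% of all genes. In 9 of the 11 the replicate 1 array was higher. Among these, HSPA1A differed by 3.86, HSPH1 by 2.07 (12.68 and 10.62), HSPA4L by 1.78 (9.18 and 7.40), HSPA6 by 1.57 (7.60 and 6.04), HSP90AA1 by 1.37 (13.43 and 12.06), HSPB3 by 1.27 (6.25 and 4.98) and DNAJA1 by 1.21 (12.07 and 10.85), and DNAJC28 and DNAJC21 by 1.18 and 1.05. DNAJC19 (7.75 and 9.35) and DNAJA3 (8.02 and 9.13) were higher on the replicate 2 array. In the Maraviroc IC50 group 20 members (28.6%) were at least 1 apart, 10 in each direction, against 17.5% of all genes. In the other groups 1.43% to 4.29% of the members were.

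Between the 2 DZH_2 doses no member passed the threshold (0% of all genes, limma), and 1 member, DNAJC9, had an unadjusted p under 0.05 (-0.64 ± 0.29), or 1.43% of members against 4.08% of all genes. No gene of the other lists passed at either dose.

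The 2 compounds were compared at their IC50 by the difference of their effects, each taken against its own solvent. They are not stated to be structurally related, and equal inhibition does not make their doses equal. Maraviroc moved 7 members further up and 2 further down than DZH_2 did (12.9% of members against 6.17% of all genes, of which 2.15% up and 4.02% down). The 7 were DNAJB2 (3.52 ± 0.57), HSP90AA1 (2.96 ± 0.72), DNAJC1 (2.16 ± 0.40), DNAJA3 (1.98 ± 0.51), HSPA5 (1.83 ± 0.36), DNAJB9 (1.79 ± 0.36) and HSPD1 (1.45 ± 0.38). HSP90AA1, HSPA5, HSPD1, DNAJA3 and DNAJC1 had positive differences under Maraviroc and negative ones under DZH_2, where those of DNAJA3 (-0.18 ± 0.36) and DNAJC1 (-0.10 ± 0.28) were smaller than their standard errors. The members moved further down were DNAJC4 (-2.50 ± 0.50) and HSPB1 (-2.16 ± 0.40), which fell under Maraviroc and had positive differences under DZH_2. Gaps between the solvents enter these differences. For HSPD1, HSP90AA1, DNAJA3 and DNAJB9 both ethanol arrays lay below both DMSO arrays, and for the other members called here the solvents overlapped. HSPD1 had 13.13 and 12.96 under ethanol and 13.76 and 13.71 under DMSO. Its Maraviroc IC50 arrays (13.70 and 13.25) were below both DMSO arrays. The part owed to the solvents was not tested.

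The effects on HSPA1A differed by 3.36 ± 1.32 (adjusted p = 0.171) and those on DNAJB1 by 1.67 ± 0.46 (adjusted p = 0.0503), and neither passed. DNAJB1 passed after median centring (adjusted p = 0.0386), with a filter on dim genes (0.0429), with a replicate block (0.044), and without the replicate 1 array of DZH_2 IC50 (0.0371) or the replicate 2 array of Maraviroc IC50 (0.0277). HSPA1A passed when only the arrays compared were fitted (adjusted p = 0.045). For DNAJC9, lower under both, the difference was -1.29 ± 0.40 (adjusted p = 0.0817). Leaving out 1 DMSO array left 4 or 5 of the 9 calls, and DNAJB2, DNAJC1 and HSPB1 were the calls that held under each alternative. HSPA5 missed the threshold without the replicate 1 array of DMSO (1.68) or of ethanol (1.62), DNAJC4 without the replicate 1 array of DMSO (-2.34) and DNAJB9 without its replicate 2 array (1.71). HSP90AA1 missed it without any 1 of the DMSO, ethanol or DZH_2 IC50 arrays (2.62 to 3.30). DNAJA3 missed it without any 1 of the DMSO or ethanol arrays, the replicate 2 array of DZH_2 IC50 or that of Maraviroc IC50 (1.63 to 2.16). HSPD1 missed it without any 1 of the DMSO, ethanol or DZH_2 IC50 arrays or the replicate 1 array of Maraviroc IC50 (1.22 to 1.53). At the IC20 no member passed (0% of all genes). There 9 members (12.9%) had an unadjusted p under 0.05, against 7.2% of all genes, with DNAJB5 (-1.35 ± 0.36) and DNAJC15 (1.56 ± 0.42) at the smallest.

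**Figure D3:**
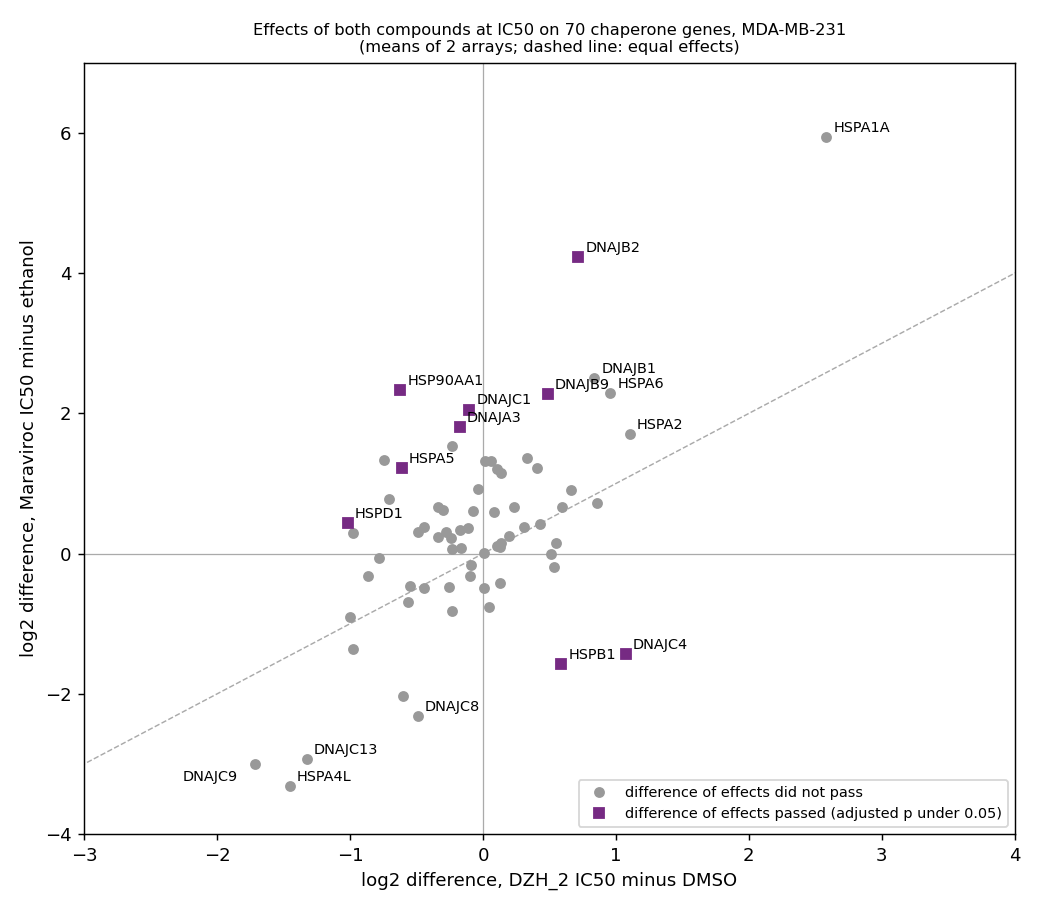
Log2 difference under DZH_2 IC50 (horizontal) and under Maraviroc IC50 (vertical) for the 70 members in MDA-MB-231, each against its own solvent and from means of 2 arrays. Squares mark the 9 members whose effects differed between the compounds, and the dashed line marks equal effects. HSPA1A lies at 2.58 and 5.94, and DNAJB2, HSP90AA1 and HSPA5 lie above the dashed line.

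The solvents themselves did not separate any member past the threshold. Ethanol against DMSO gave 0 calls over all genes (0%), while 7 members (10%) had an unadjusted p under 0.05, against 7.64% of all genes (limma). The median was -0.20 over the members and 0.01 over all genes. Both ethanol arrays lay below both DMSO arrays for 26 of the 70 members and above them for 6. Over all 17687 genes these counts were 3708 and 3758. Either way the solvents did not overlap for 45.7% of members and 42.2% of all genes. By the means, 46 members were lower in ethanol and 24 higher, against 8710 and 8977 of all genes. DNAJC15 had 11.66 and 11.77 under ethanol and 12.72 and 12.56 under DMSO, a difference of -0.93 ± 0.30. HSPBAP1 had 6.26 and 5.92 against 6.94 and 6.72, or -0.74 ± 0.25. In untreated cells DNAJC15 was at 12.66 and HSPBAP1 at 6.50, the first near the DMSO arrays and the second between both solvents.

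On the arrays titled MCF10, each group had 1 array, so differences there have no replicate check and carry no test. Several inducible chaperones, HSPA1A and HSPH1 among them, stood higher under DZH_2 IC50 than under DMSO. DNAJB1 and HSPB1 were less than 1 higher at the IC50 (0.99 and 0.58) and were lower than DMSO at the IC20 (-0.68 and -0.45). HSPD1 (-0.32 and -0.10) and HSPE1 (-0.10 and -0.07) were below DMSO at the IC20 and the IC50. At both doses 8 members were at least 1 log2 unit above DMSO (11.4% of members against 4.52% of all genes), and none was that far below (against 4.88%). These counts rest on 1 DMSO array. Set against the untreated array, DNAJA1 and DNAJC6 were not 1 higher at both doses, while HSPA13 and HSPE1-MOB4 were. DNAJC4 and DNAJC5B were at least 1 below the untreated array at both doses, DNAJC5B under the level of the negative controls. At the IC20 16 members were that far above and 5 below (11.6% and 12.8% of all genes), and at the IC50 17 were above and 1 below (9.38% and 8.83%). The median difference at the IC50 was 0.48 over the members and 0.01 over all genes.

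HSP90AA1 had 12.39 and 12.70 at the IC20 and the IC50, against 10.27 under DMSO and 10.53 in untreated cells. HSPH1 had 9.13 and 10.44 against 7.89 and 7.95, and DNAJA1 had 9.29 and 10.07 against 7.66 and 8.81. Each was higher at the IC50 than at the IC20, and for DNAJA1 the untreated array was itself 1.15 above DMSO. DNAJC10 had 9.10 and 8.99 against 7.22 and 7.63, HSPA9 had 13.31 and 13.74 against 11.93 and 11.22, and DNAJB4, a J-domain protein close to DNAJB1, had 8.53 and 9.03 against 7.27 and 7.45. DNAJB11, a soluble partner of BiP, and DNAJC6, which uncoats clathrin vesicles, completed the 8. For DNAJC6 the untreated array was 1.07 above DMSO, about as far as the IC50 array at 1.03.

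Other inducible genes stood apart at the IC50 alone. HSPA1A had 13.33 at the IC50, against 10.84 at the IC20, 10.47 under DMSO and 10.59 in untreated cells. HSPB8 had 8.20 against 6.23, 5.79 and 5.94 in the same order, and HSPA5 had 14.04 against 12.37, 11.98 and 11.80. HSPA6 had 7.68 against 6.32, 6.37 and 6.80. DNAJC4 went the other way, with 9.15 at the IC20 and 11.41 at the IC50 against 12.25 under DMSO and 12.92 in untreated cells. DNAJC13 was high at the IC20 alone, with 8.97 against 6.74, 6.54 and 6.73.

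**Figure D4:**
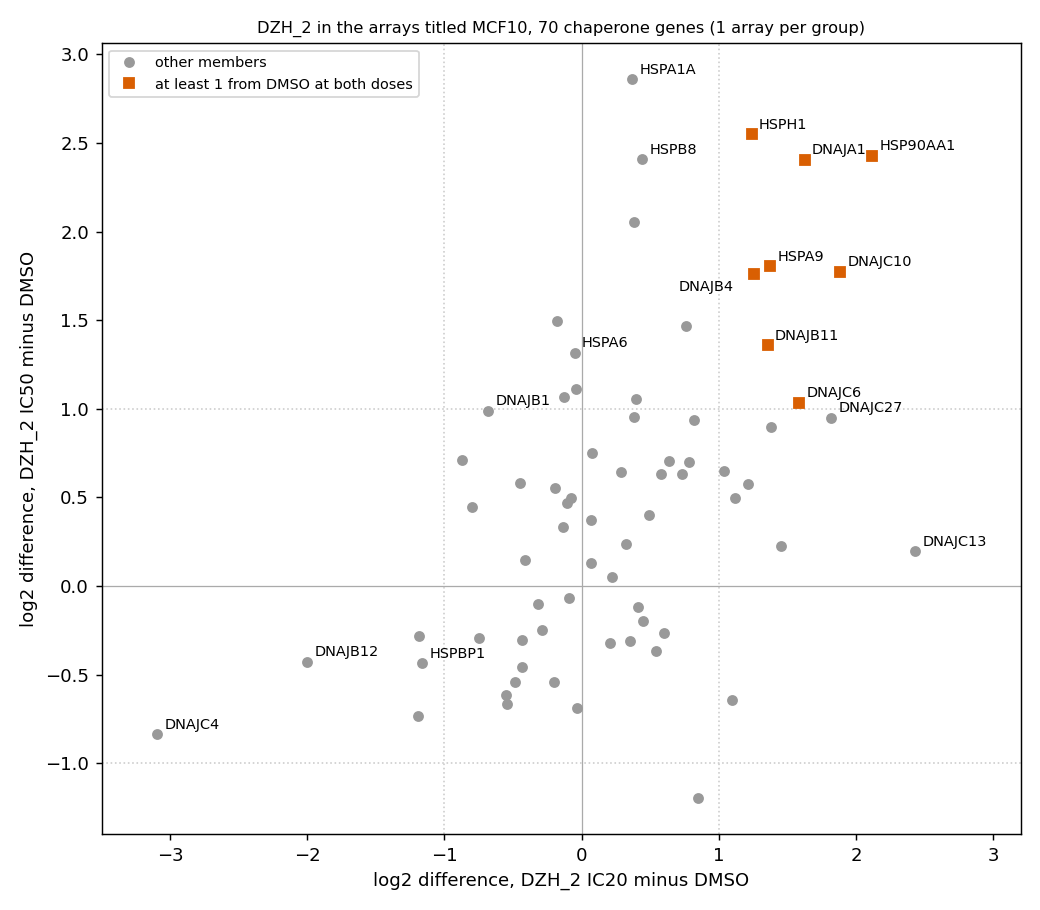
Log2 difference from DMSO at DZH_2 IC20 (horizontal) and IC50 (vertical) for the 70 members on the arrays titled MCF10, with 1 array per group and no error. Squares mark the 8 members at least 1 above DMSO at both doses, and dotted lines mark 1 and -1. HSPA1A lies at 0.37 and 2.86, HSP90AA1 at 2.12 and 2.43 and DNAJC4 at -3.10 and -0.84.

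Every DZH_2 array of both lines was above every DMSO array of its line for HSPA1A, HSPA1L, HSPA2, HSPB8 and DNAJB2, and below for HSPA4L, HSPD1, DNAJC15 and DNAJC24. These 9 are 12.9% of the members, against 11.3% of all genes. HSPA1L stayed below the level of the negative controls on all of these arrays, HSPB8 in MDA-MB-231 and DNAJC24 on both MCF10 DZH_2 arrays. The untreated MCF10 array was itself below DMSO for each member that was lower. It differed from DMSO by -1.18 for DNAJC24 and -0.76 for HSPA4L, further than either DZH_2 array. For HSPD1 it differed by -0.29, against -0.32 at the IC20 and -0.10 at the IC50. For DNAJC15 it differed by -0.17, against -1.19 and -0.73.

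Without treatment or with DMSO, many members stood lower on the arrays titled MCF10 than on the MDA-MB-231 controls. At least 1 lower with no overlap were 30 members (42.9% against 23.9% of all genes), and 6 were higher (8.57% against 12.6%). Here the 2 MCF10 control arrays were set against 3 MDA-MB-231 arrays, those of DMSO and of untreated cells, without a test. The difference in means was -3.97 for DNAJC13, -3.97 for HSPA13, -3.96 for HSPH1, -3.91 for HSPD1 and -3.71 for DNAJA1. DNAJC4 was 2.85 higher, HSPB8 1.86 higher and HSPB7 1.37 higher. HSPB8 was below the level of the negative controls on all of these arrays and HSPB7 on those of MDA-MB-231, so neither size is well measured. Median centring of the arrays moves the median of all genes in this comparison from 0.04 to 0.46 and leaves 25 members lower and 11 higher, and quantile normalization leaves 25 lower and 9 higher.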

How the data were processed

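Gene expression was measured on 17 arrays. The values used are the log2 signals that the authors deposited, taken as they are. How they were summarised and normalized, and which genome build the array design used, the labels do not state. Array data carry no counting depth, so the number of arrays limits precision. Probe sets were named by Entrez identifier and RefSeq symbol, and the one with the highest mean was kept per gene (17687 genes). The 12 arrays of the 6 replicated groups were fitted with limma 3.58.1 (R 4.3.3), 1 mean per group, leaving 6 residual degrees of freedom. Tests were 2-sided, adjusted by Benjamini-Hochberg over all 17687 genes at 0.05, with no filter on dim genes. Differences are log2 with standard errors. The step was tested on simulated data for DZH_2 IC50 against DMSO over 17687 genes, where 12.5% of planted log2 changes of 1, 74.6% of 2 and 96.4% of 3 were recovered and 4.27% of calls were false. Groups of 1 array were described by a difference of at least 1. Python used pandas 2.3.3 and numpy 2.4.6. Members, lists and tests were chosen with earlier results of these data known. Named members were, per comparison, those with the largest changes past the threshold or else the smallest p, and up to 4 with the smallest p per role and list. Same-numbered replicates share only a number.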

Additional observations from a re-analysis of the deposited data

Results flagged for a closer look

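Under DZH_2, 8 members stood on opposite sides of DMSO in the lines (11.4% of members, close to the 9.28% of all genes). For these, every treated array was above the DMSO arrays in one line and below them in the other. The difference between the lines was not tested, since the arrays titled MCF10 have 1 array per group. The effect in MCF10 minus that in MDA-MB-231, each averaged over both doses, was 2.83 for DNAJC10, 2.58 for DNAJC13, 1.91 for HSPA13, 1.19 for DNAJC7, 1.08 for DNAJC3 and 0.58 for DNAJC25-GNG10, all higher in MCF10 and lower in MDA-MB-231. It was -3.19 for DNAJC4 and -1.63 for DNAJB5, both lower in MCF10 and higher in MDA-MB-231. DNAJC10 and DNAJC3 belong to the 11 members placed in the endoplasmic reticulum, and HSPA13 was grouped with the distant HSP70 members. DNAJC10 differed from DMSO by 1.83 in MCF10 and -1.0 in MDA-MB-231, and DNAJC4 by -1.97 and 1.22. In MCF10, DNAJC13 differed from DMSO by 2.43 at the IC20 but by 0.20 at the IC50, and its untreated array by 0.19. DNAJC25-GNG10 differed there by 0.07 at the IC20, which became -0.02 after median centring.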

How the results depend on the processing

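For Maraviroc IC50 against ethanol the member count of 26 stayed between 19 and 35 over the alternatives, with 22 higher and 8 lower after median centring, which moved the median of all genes from 0.11 to 0.28. For DZH_2 IC50 against DMSO the count of 1 became 5 when only the arrays compared were fitted, 3 without the Maraviroc IC50 arrays, 4 with array weights and 4 with both doses pooled, an alternative chosen after seeing the data, and 0 in each fit that left out 1 replicate. For DZH_2 IC20 against DMSO the count of 0 became 3 without the Maraviroc IC50 arrays, 4 with array weights, 1 (DNAJB1) with all 5 control arrays, 4 with both doses pooled and 0 to 1 when 1 replicate was left out. The members called under array weights at the IC20 were DNAJB5, DNAJC15, DNAJC4 and DNAJC9. With a replicate block 1 member, DNAJC4, passed for the DZH_2 IC20 and 28 for Maraviroc IC50 against IC20. The numbers pair nothing by the labels, and deviations of same-numbered replicates correlated at -0.15 to 0.30 between groups. For the compounds at IC50 the count of 9 ranged from 4 (without DMSO replicate 1) to 13 when 1 replicate was left out. Over all 70 members, 9 comparisons and their alternatives, a call was gained 107 times and lost 109 times, and no difference called in either fit changed sign. On the arrays titled MCF10, other scalings turned the sign of 10 differences from DMSO, all of members under 1 from DMSO, such as HSP90AB1 (-0.20 to 0.24) and HSPE1 (-0.10 to 0.22) at the IC20 after quantile normalization. The cause of these changes was not tested. Members near the negative controls, such as DNAJB13 and HSPA1L, are limited by their signal.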
